A study of Rattus norvegicus with 42 samples.

Results

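Toll-like receptors recognise molecules of microbes and of damaged cells at the surface or in the endosomes of innate immune cells. Lipopolysaccharide (LPS), the endotoxin of Gram-negative bacteria, is handed by CD14 to a complex of TLR4 and MD-2, the product of Ly96. All receptors of the family except TLR3 then signal through the adaptor MyD88 and the kinase IRAK4 to NF-kB and interferon regulatory factors. In blood these proteins are best known from neutrophils and monocytes, the cells that respond first to tissue injury. The 8 genes described here are the cell surface receptors Tlr2 and Tlr4, the endosomal receptors Tlr7 and Tlr8 for single-stranded RNA, the LPS co-receptors Ly96 and Cd14, the adaptor Myd88 and the kinase Irak4. They were taken by gene symbol from the annotated probe sets and are 8 of the 14217 genes with an unambiguous probe set. Each had 1 such probe set, all 8 were tested, and none was lost to a filter.

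Expression was measured in whole blood of 42 male Sprague-Dawley rats of 280 to 350 g, 6 in each of 7 groups. Middle cerebral artery occlusion (MCAO), a model of ischemic stroke, lasted 2 h before blood flow was restored in reperfused-MCAO and 24 h in permanent-MCAO. Each kind of MCAO was studied with and without tissue plasminogen activator (tPA), the clot-dissolving drug of acute stroke, given at 3 h at 3.3 mg/kg as the human recombinant protein. The groups without MCAO received tPA, anesthesia alone or nothing (naive). Blood was drawn at 24 h under isoflurane in all groups. Neither a sham operation nor the anesthesia of the rats that received tPA without MCAO is described. MCAO was made by surgery, with a suture passed into the carotid artery. Differences between rats with and without MCAO, the stroke effect among them, therefore cannot be told apart from those of the surgery. The values are log2 expression levels from 1 array per rat, so a difference of 1 is a 2-fold change. Levels of different genes come from different probes and were not compared with each other.

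Markers of neutrophils, monocytes, T cells, B cells, NK cells, platelets and red cell precursors were all measured in these arrays at list means above log2 4. The arrays of tPA without MCAO differed from the others in their group means. Their hybridization controls, RNAs added to every array, averaged 11.2 ± 0.747 (SD, n = 6), against 12.2 ± 0.221 in anesthesia, and group means in the other groups lay between 11.9 and 12.2. Single arrays of tPA without MCAO ran from 9.72 to 11.7, which overlapped other groups, such as permanent-MCAO + tPA with its lowest array at 11.4. The red cell markers of tPA without MCAO averaged 11.4 ± 0.818, against 12.6 ± 0.227 in anesthesia. Replicate 2 of that group was its lowest, at 9.83, and replicate 4 its highest, at 12.1. Every comparison that uses this group carries that difference. In a bulk sample of blood, fewer cells of a type and less RNA per cell cannot be told apart.

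The stroke question was asked first over all 42 arrays. The stroke effect is the mean difference between rats with and without MCAO, over rats with and without tPA, in a limma model with terms for tPA, MCAO, anesthesia and tPA by MCAO. A gene was called at a p of at most 0.05 with a fold of at least 1.2, the thresholds of the study's methods. Tlr2, Ly96, Cd14 and Myd88 rose with stroke, 4 of the 8 genes, and none fell. Over all 31042 probe sets 6.02% passed as higher and 9.39% as lower, and among the 7966 genes with a mean of at least log2 4, as 7 of the 8 genes have, 12.5% were called higher. The median difference of the 8 genes was 0.31 on the log2 scale, against 0.00 over all probe sets. Adjusted over all probe sets, Tlr2, Ly96 and Cd14 stayed under 0.05, a level that 7.86% of probe sets reached in either direction. With the hybridization controls as a covariate only Cd14 did (adjusted p = 0.0230), with Tlr2 at 0.0955 and Ly96 at 0.0658. The anesthesia of the rats given tPA without MCAO is not stated, and with that group coded as not anesthetised none did, the adjusted p being 0.294 for Tlr2, 0.171 for Ly96 and 0.299 for Cd14. The 4 genes themselves were called in both fits. Blood cell markers moved with the stroke effect as well. Called higher were 5 of 8 neutrophil, 1 of 9 monocyte, 4 of 6 NK cell, 3 of 4 platelet and 2 of 6 red cell markers. Called lower were 8 of 8 T cell and 2 of 4 B cell markers. Without tPA, median differences from anesthesia in reperfused- and permanent-MCAO were -0.09 and -0.12 for T cell markers. They were 0.30 and 0.13 for platelet and -0.33 and -0.11 for red cell markers. Under tPA, against tPA without MCAO, T cell medians were -0.98 and -0.75. Platelet medians were 0.96 and 1.12 there, and red cell medians 1.13 and 1.08. The cause was not tested.

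Cd14, the receptor that delivers LPS, had the largest stroke effect of the 8 at 0.80 ± 0.216 on the log2 scale (SE, 1.75-fold, adjusted p = 0.0162 from limma). Tlr2, which recognises bacterial lipoproteins together with TLR1 or TLR6, rose by 0.58 ± 0.155 (1.49-fold, adjusted p = 0.0157). Ly96 rose by 0.41 ± 0.115 (1.33-fold, adjusted p = 0.0205). Myd88 rose by 0.38 ± 0.131 and missed the adjusted level (1.30-fold, adjusted p = 0.0679). The remaining genes were not called. Tlr7 had a difference of 0.25 ± 0.151, Tlr4 of 0.15 ± 0.192, Tlr8 of 0.15 ± 0.120 and Irak4 of -0.16 ± 0.116. The 4 calls were made in each of the 42 fits that left out 1 array.

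Group means were then ordered for each gene. For 7 of the 8 genes, all but Irak4, anesthesia was the group with the lowest mean. Reperfused-MCAO without tPA had the highest mean of Tlr2, Ly96, Cd14 and Myd88, while reperfused-MCAO + tPA had the highest mean of Tlr4, Tlr7 and Tlr8. Neighbours in the order of the 7 group means rarely stood apart. The gap between neighbours was larger than their pooled SD only for Tlr8 between permanent-MCAO and anesthesia and for Myd88 between naive and anesthesia.

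**Figure D1:**
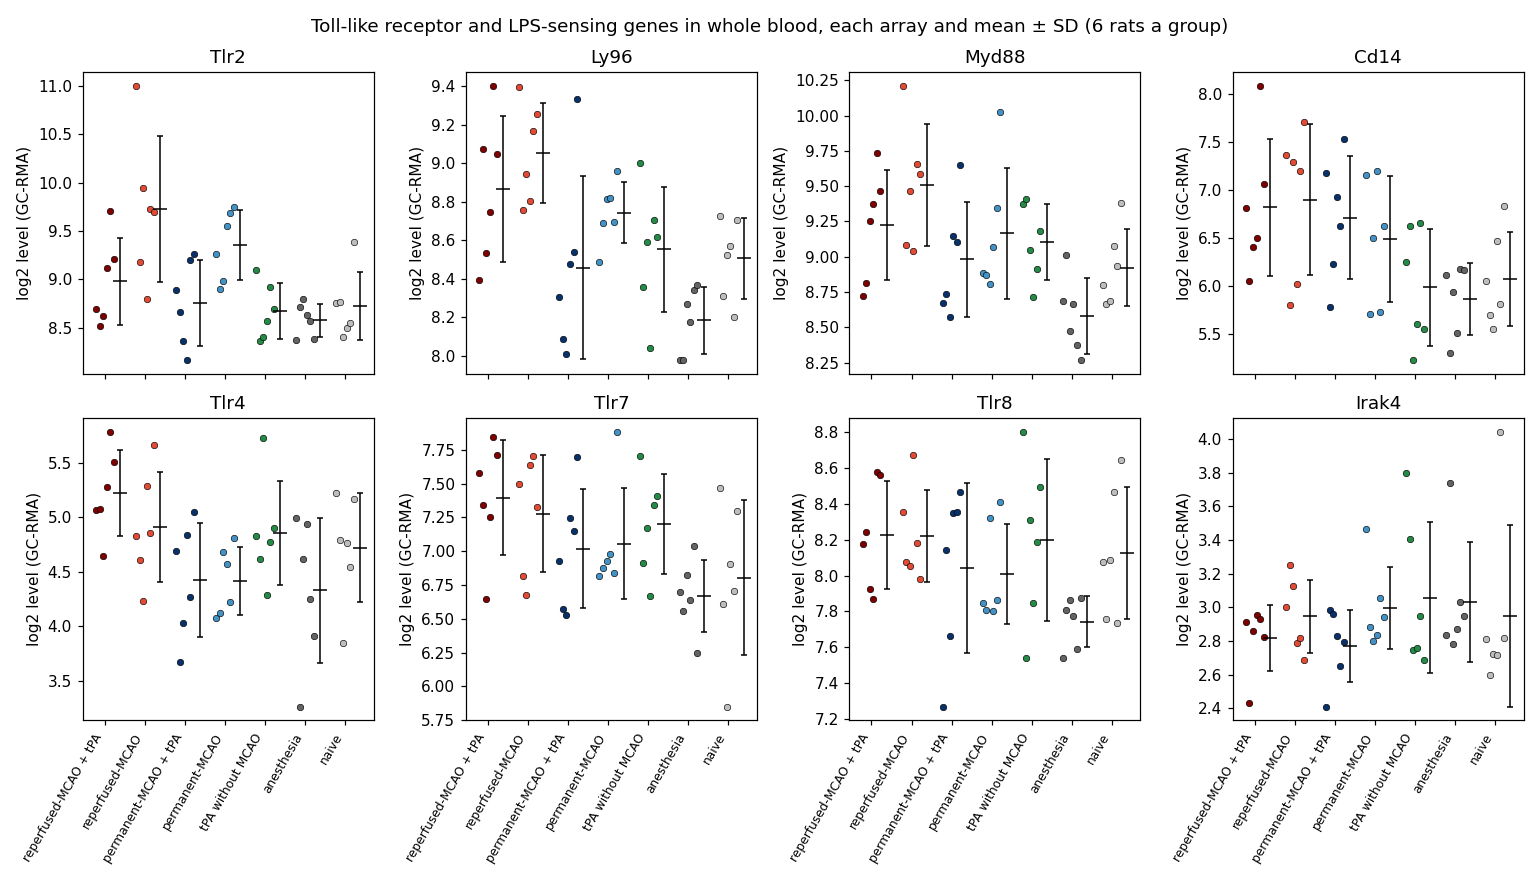
Log2 level of the 8 genes in whole blood by group, with 1 point per rat and the mean ± SD of 6 rats beside the points. The reperfused-MCAO rats lie wholly above the anesthesia rats for Tlr2, Ly96, Myd88 and Tlr8. For Irak4, whose mean over all arrays of 2.94 is below log2 4, single rats carry the spread.

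Against anesthesia alone, 4 of the 8 genes rose in reperfused-MCAO without tPA at the stricter threshold that the methods use for 12 arrays (a p of at most 0.01 and a fold of at least 1.2). These were Tlr2, Tlr8, Ly96 and Myd88, where 4.09% of all probe sets, and 8.98% of the genes with a mean of at least log2 4, were called higher. In each of the 4 the lowest reperfused-MCAO rat was above the highest anesthesia rat. A separation of that kind in the same direction was found in 1.54% of probe sets. The exact permutation p was 0.00216 for each, the smallest that the 924 divisions of 12 rats allow, in a family of 64 exact tests. The median difference of the 8 genes was 0.74, against -0.02 over all probe sets.

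Tlr2 reached 8.80, 9.71 and 11.0 (lowest, median and highest log2 level) in reperfused-MCAO rats, against 8.37, 8.60 and 8.80 in anesthesia rats. The lowest MCAO rat and the highest control rat were thus almost level, and 1 MCAO rat stood far above the rest. The difference was 1.15 ± 0.303 (SE, 2.22-fold, adjusted p = 0.0847 from limma), and without that rat, replicate 1, it was 0.89. The call was made in all 12 fits that left out 1 array, but was lost with array weights (adjusted p = 0.102) and with the hybridization controls as a covariate (adjusted p = 0.219).

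Ly96, whose product lets TLR4 bind LPS, reached 8.76, 9.06 and 9.39 in reperfused-MCAO rats, against 7.98, 8.22 and 8.37 in anesthesia rats. The groups were clearly apart. The difference was 0.87 ± 0.122 (1.83-fold, adjusted p = 0.0122 from limma), the smallest adjusted p of the 8 genes. Myd88, the common adaptor, reached 9.04, 9.52 and 10.2 in reperfused-MCAO rats, against 8.27, 8.57 and 9.01 in anesthesia rats. All MCAO rats were above all controls, by a narrow margin between the nearest of them. The difference was 0.93 ± 0.198 (1.90-fold, adjusted p = 0.0394 from limma). Ly96 and Myd88 were the members with an adjusted p under 0.05, a level reached by 2.11% of probe sets.

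Tlr8 reached 7.98, 8.13 and 8.67 in reperfused-MCAO rats, against 7.54, 7.79 and 7.87 in anesthesia rats. The groups did not overlap, and the anesthesia rats lay close together. The difference was 0.48 ± 0.115 (1.39-fold, adjusted p = 0.0621 from limma). Cd14 reached 5.80, 7.25 and 7.71 in reperfused-MCAO rats, against 5.29, 6.02 and 6.18 in anesthesia rats. Here 4 of the 6 MCAO rats were above every control, while replicates 2 and 4 lay among the controls. The difference of 1.03 ± 0.341 missed the threshold (p = 0.0117, adjusted p = 0.172, exact permutation p = 0.0303), and Cd14 was called without replicate 2 (1.25, p = 0.00179) or without replicate 4 (1.21, p = 0.00419). Tlr7, at 0.61 ± 0.199, also just missed it (p = 0.0110 from limma, exact permutation p = 0.0238) and was called without reperfused-MCAO replicate 2 or 3 or without anesthesia replicate 5 (0.70, 0.73 and 0.68). Tlr4, the LPS receptor itself, differed by 0.58 ± 0.327 with overlapping groups (p = 0.103 from limma, exact permutation p = 0.132).

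In permanent-MCAO without tPA, Tlr2 and Ly96 rose against the same anesthesia rats, 2 of 8 genes where 1.77% of all probe sets, and 3.97% of the genes with a mean of at least log2 4, were called higher. Both were again without overlap between the groups, as were 0.619% of probe sets in that direction, and both had an exact permutation p of 0.00216. Tlr2 reached 8.90, 9.41 and 9.74 in permanent-MCAO rats, against 8.37, 8.60 and 8.80 in anesthesia rats, a difference of 0.78 ± 0.156 (1.72-fold, adjusted p = 0.0883 from limma). Ly96 reached 8.49, 8.75 and 8.96 in permanent-MCAO rats, against 7.98, 8.22 and 8.37 in anesthesia rats, a difference of 0.56 ± 0.0930 (1.47-fold, adjusted p = 0.0509 from limma). Neither had an adjusted p under 0.05, and 0.145% of probe sets did. Both calls were made in all 12 fits that left out 1 array.

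The other genes were not called in permanent-MCAO. Cd14 differed by 0.62 ± 0.295, Myd88 by 0.59 ± 0.209, Tlr7 by 0.38 ± 0.191, Tlr8 by 0.27 ± 0.122 and Tlr4 by 0.08 ± 0.287. Myd88 was called only without anesthesia replicate 2 (0.67, adjusted p = 0.299 from limma). Both kinds of MCAO were set against the same 6 anesthesia rats, so their differences are not independent, and no test between the kinds of MCAO was made for these genes.

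The choice of control changed these calls. With naive rats as the control, an alternative chosen after seeing the data, Ly96 remained called in reperfused-MCAO at 0.55 ± 0.131 (adjusted p = 0.0989 from limma) and Tlr2 in permanent-MCAO at 0.63 ± 0.197 (adjusted p = 0.261). Tlr2 in reperfused-MCAO kept most of its difference, 1.00 ± 0.327, but was not called (adjusted p = 0.198). Nor were Myd88 at 0.58 ± 0.200 in reperfused-MCAO (adjusted p = 0.218), Tlr8 at 0.09 ± 0.177 (adjusted p = 0.761) and Ly96 in permanent-MCAO at 0.24 ± 0.104 (adjusted p = 0.455). Anesthesia against naive called none of the 8 genes, with 0.821% of probe sets called in either direction. Of the 8 differences 7 were negative, with a median of -0.26. Among the 7966 expressed genes counted above 65.2% of the differences were negative too, with a median of -0.09. The direction was thus not particular to these genes, while their median was lower than that of expressed genes at large. Tlr8 stood at -0.39 ± 0.155 (p = 0.0297, exact permutation p = 0.0325), Myd88 at -0.34 ± 0.150 (p = 0.0428, exact permutation p = 0.0563) and Ly96 at -0.32 ± 0.107 (p = 0.0120, exact permutation p = 0.0238). Ly96 was called lower in anesthesia without anesthesia replicate 6 or without naive replicate 2 or 5 (-0.36, -0.36 and -0.38), with array weights (-0.33) and with the hybridization controls as a covariate (-0.42).

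**Figure D2:**
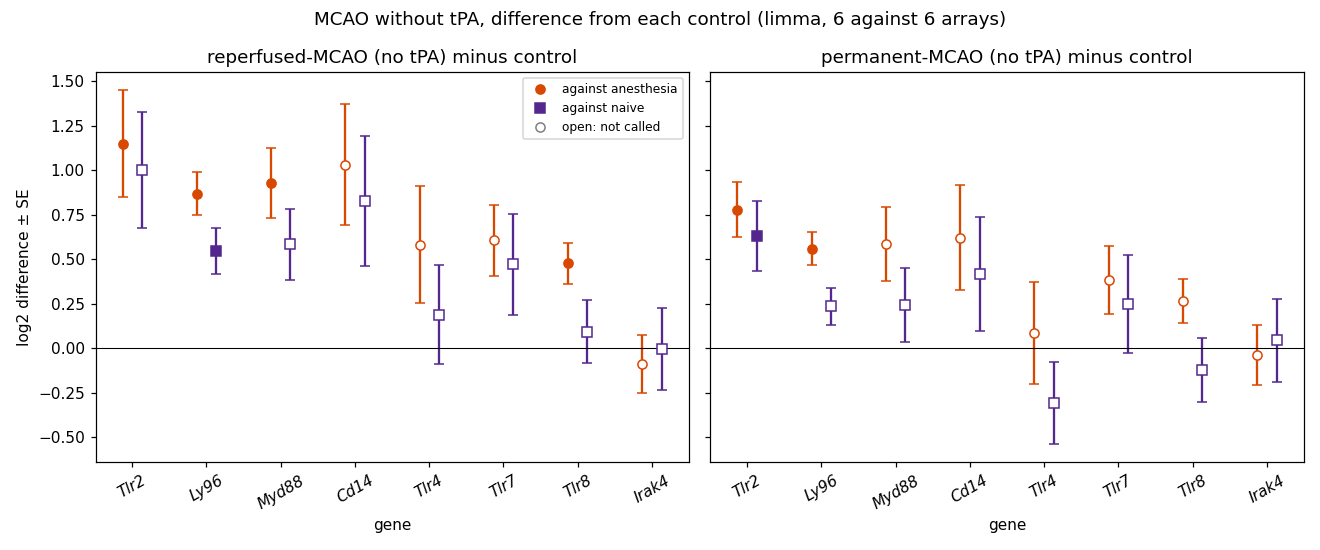
Log2 difference ± SE of each gene between MCAO rats without tPA and anesthesia rats (circles) or naive rats (squares), 6 against 6 arrays in limma. Filled symbols were called. Tlr2 lies at 1.15 and 1.00 in reperfused-MCAO against the 2 controls, while Tlr8 lies at 0.48 and 0.09.

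Markers of the cells that carry these receptors moved in the same comparisons. In reperfused-MCAO 4 of 8 measured neutrophil markers were called higher, and the mean of the list was 10.3 ± 0.701 (SD, range 9.29 to 11.3), against 9.24 ± 0.481 (range 8.61 to 9.88) in anesthesia. The called markers included Csf3r, the receptor for granulocyte colony-stimulating factor, at 1.68 and Il1r2, a decoy receptor for interleukin 1, at 2.22. Of 9 monocyte markers 4 were called higher, and the list mean was 8.32 ± 0.203 (range 7.998 to 8.58), against 7.75 ± 0.207 (range 7.40 to 7.998) in anesthesia. Among them were Vcan, a matrix proteoglycan of classical monocytes, at 1.96 and Ctss, a lysosomal protease, at 0.52. The monocyte markers Cx3cr1 and Ms4a7 were dim, with means of 3.32 and 2.52. Of 6 NK cell markers 3 were also called higher. In permanent-MCAO the neutrophil list had 3 calls and a mean of 9.87 ± 0.546, and the monocyte list 2 calls and a mean of 8.17 ± 0.125. Naive rats averaged 9.66 ± 0.476 for the neutrophil list and 7.96 ± 0.209 for the monocyte list, above the anesthesia rats in both. The part of these cell types in the differences of the 8 genes was not tested.

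Across the 42 arrays Tlr2 followed the neutrophil list most closely, with a Pearson r of 0.86, and 0.84 after the group means were removed. Ly96 followed the monocyte list, with an r of 0.88 and of 0.83 after removal. Tlr2 also had an r of 0.64 with the monocyte list, and Ly96 of 0.67 with the neutrophil list. Myd88 followed the neutrophil and monocyte lists about equally (0.74 and 0.73), with 0.66 and 0.57 after removal. Tlr7 and Tlr8 ran with the monocyte list (0.77 and 0.73) more than with the neutrophil list (0.45 and 0.34). Cd14 had an r of 0.59 with the monocyte list, 0.57 with the NK cell list and 0.45 with the neutrophil list. Tlr4 had an r of 0.48 with the monocyte list. Irak4 followed neither the monocyte nor the neutrophil list (-0.02 and 0.04). These correlations describe 42 arrays that share groups and processing, and carry no test.

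**Figure D3:**
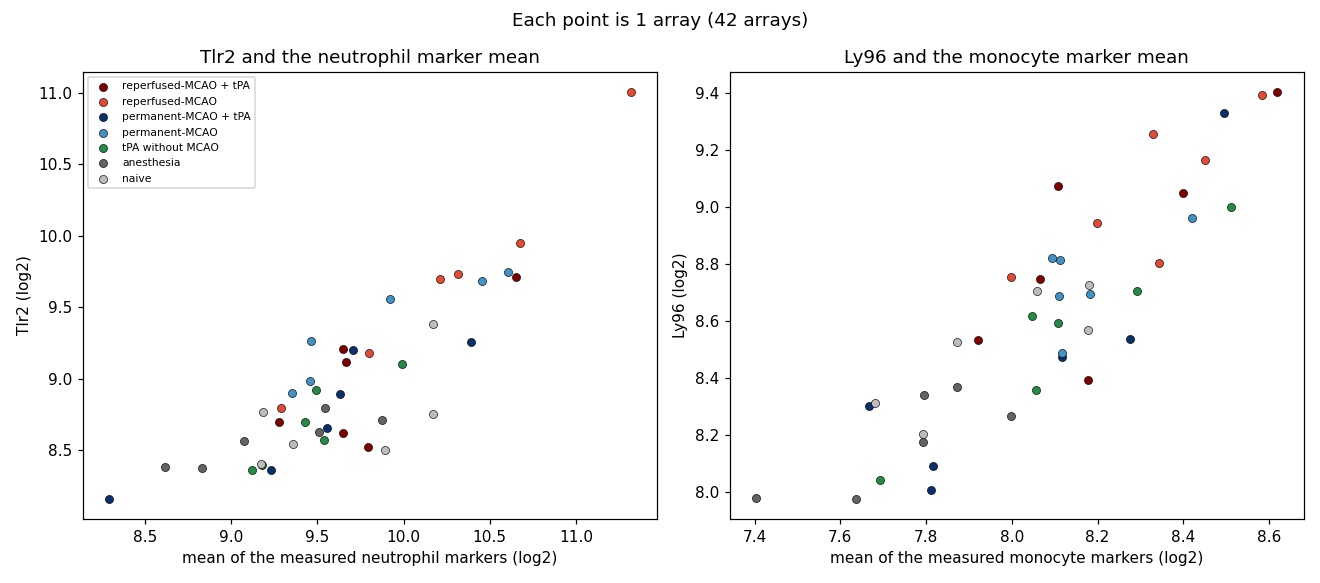
Log2 level of Tlr2 against the mean of 8 neutrophil markers and of Ly96 against the mean of 9 monocyte markers, 1 point per array, coloured by group. Both rise along the marker mean within and between groups (r of 0.86 and 0.88 over 42 arrays), and the reperfused-MCAO rat with the highest Tlr2, 11.0, also has the highest neutrophil mean, 11.3.

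The single genes whose pattern was most like each member, among 7965 other genes with a mean of at least log2 4, were named by Pearson r over the 42 arrays. For Tlr2 these were Alox5ap, which presents arachidonic acid for leukotriene synthesis, Il1r2 and Ppp1r3b, with r of 0.90, 0.89 and 0.88. For Myd88 they were Ifngr1, Myadm and Ifngr2, of which Ifngr1 and Ifngr2 are the chains of the interferon gamma receptor, with r of 0.89, 0.88 and 0.88. Ly96 was most like Klf10, Smpdl3a and Snx18 (0.84, 0.84 and 0.83). Tlr8 was most like Ap1s2, Rnf149 and Tcf7l2 (0.86, 0.76 and 0.76), and Tlr7 like Dpy19l1, Fcna and Mpeg1, a pore-forming protein of macrophages (0.80, 0.76 and 0.75). Cd14 was most like the matrix genes Fn1 and Vcan (0.81 and 0.75), with Sipa1l2 between them (0.76). Tlr4 was most like Tlr7 (0.70), followed by Rab1a and Slfn4 (0.64 and 0.61). Irak4 had no close partner, its highest r being 0.57 with Tsr3. Among the 8 genes, Tlr2, Ly96 and Myd88 ran together with pairwise r of 0.71 to 0.75, while Tlr2 and Tlr4 had an r of 0.19.

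Promoter sequences are shown for Tlr2, Cd14 and Myd88, 3 of the 4 genes that rose with stroke, 5′ to 3′ along the gene. RefSeq gives them for the GRCr8 rat assembly, from 250 bases before to 50 bases after an annotated start. RefSeq entries were matched for 7 of the 8 genes, all but Ly96. Tlr2 is on the minus strand at chr2:171504508-171504807, Cd14 on the minus strand at chr18:28611109-28611408 and Myd88 on the minus strand at chr8:127956181-127956480. The annotated gene spans reach to 171504831 for Tlr2 and 28611409 for Cd14, so both windows lie inside them. The start used for these genes is therefore not the outer end of the gene, and bases before it may be transcribed. The Myd88 span reaches to 127956230, within its window. Capitals mark 2 short patterns on either strand: GGGNNNNNCC, a loose form of the site bound by NF-kB, and GAGGAA, the core bound by PU.1, a regulator of myeloid genes. They can overlap each other and themselves.
Tlr2: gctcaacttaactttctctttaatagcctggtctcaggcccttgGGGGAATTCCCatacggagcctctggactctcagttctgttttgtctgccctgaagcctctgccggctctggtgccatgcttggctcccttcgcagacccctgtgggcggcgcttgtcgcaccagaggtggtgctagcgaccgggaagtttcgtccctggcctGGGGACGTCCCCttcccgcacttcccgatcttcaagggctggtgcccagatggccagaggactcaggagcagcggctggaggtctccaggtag
Cd14: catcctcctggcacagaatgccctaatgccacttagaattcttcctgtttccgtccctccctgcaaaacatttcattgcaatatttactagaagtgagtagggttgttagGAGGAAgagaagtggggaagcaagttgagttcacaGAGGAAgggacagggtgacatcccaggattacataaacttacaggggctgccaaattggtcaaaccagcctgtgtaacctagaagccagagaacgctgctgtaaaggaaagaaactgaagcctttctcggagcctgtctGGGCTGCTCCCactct
Myd88: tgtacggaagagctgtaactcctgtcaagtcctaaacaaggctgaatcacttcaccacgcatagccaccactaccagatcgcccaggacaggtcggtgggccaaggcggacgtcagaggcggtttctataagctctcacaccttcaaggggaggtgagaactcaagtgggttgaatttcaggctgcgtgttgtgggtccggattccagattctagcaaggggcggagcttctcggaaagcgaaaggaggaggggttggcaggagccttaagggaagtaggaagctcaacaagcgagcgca
The Tlr2 window held GGGNNNNNCC 5 times in 2 overlapping clusters and GAGGAA nowhere. The Cd14 window held GAGGAA 2 times and GGGNNNNNCC 2 times, the last just after the start used. The Myd88 window held neither. Of 27457 rat promoters of the same length 48.5% hold GGGNNNNNCC and 27.5% hold GAGGAA, and 3 and 5 of the 7 member promoters do, so these letters are common and are given as a description of the windows only.

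Other genes of the pathway were counted in the same comparisons. In reperfused-MCAO, of 62 measured genes of a 75-gene list, 12 were called higher and 2 lower against anesthesia, and the median difference was 0.12. Among all genes with a mean of at least log2 4, 8.98% were called higher and 4.58% lower. Il1b, the inflammatory cytokine made on TLR signaling, rose by 1.31 ± 0.163 (adjusted p = 0.00832 from limma). Tlr1, the partner receptor of Tlr2, rose by 1.22 ± 0.260 (adjusted p = 0.0395), and Tollip, a brake on IRAK signaling, by 0.38 ± 0.0572 (adjusted p = 0.0140). Tab3, a subunit of the TAK1 kinase complex, fell by 0.88 (adjusted p = 0.0197). By role, 3 of 9 co-receptor and trafficking genes, 5 of 19 transcription factors and target genes and 3 of 15 brakes were called higher, while of 17 adaptors and kinases none was called higher and 2 lower. Of the other Toll-like receptors only Tlr1 and the related Cd180 had a probe set of their own, and the rest were not analysed here. In permanent-MCAO 3.97% of the genes with a mean of at least log2 4 were called higher and 2.27% lower. Of the pathway list 6 genes were called higher there and 1 lower, with a median of 0.04. Of these Il1b stood at 1.10 ± 0.203, Jun at 1.24 ± 0.279 and Cyld, a deubiquitinase that restrains NF-kB, at 0.52 ± 0.132, while Tab3 fell by 0.83 (adjusted p of 0.0722, 0.122, 0.176 and 0.0912 from limma). Over all 42 arrays, with the milder threshold, the stroke effect called 8 of the 62 pathway genes higher and 5 lower. Among the genes with a mean of at least log2 4, 12.5% were called higher and 20.4% lower. The higher count was thus near that of expressed genes at large and the lower count was smaller. The 62 genes, however, include dim ones below that mean, such as Il6 and Itgam. Il1b at 0.88 ± 0.139, Jun at 1.09 ± 0.198, the LPS-binding protein gene Lbp at 0.81 ± 0.187 and the chemokine gene Ccl4 at 0.64 ± 0.157 had the smallest p.

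The question of tPA was asked over all 42 arrays in the same model. The tPA effect, the mean difference between rats with and without tPA, called none of the 8 genes, where 6.91% of probe sets were called higher and 5.05% lower. Tlr2 stood at -0.29 ± 0.155 (adjusted p = 0.324 from limma), Tlr4 at 0.35 ± 0.192 (adjusted p = 0.345), Tlr7 at 0.29 ± 0.151 (adjusted p = 0.314) and Tlr8 at 0.24 ± 0.120 (adjusted p = 0.287). With tPA without MCAO coded as not anesthetised Tlr2 was called at -0.36 (adjusted p = 0.446), while Tlr4 came to 0.15, Tlr7 to 0.22 and Tlr8 to 0.04. With the hybridization controls as a covariate Tlr4 came to 0.12, Tlr7 to 0.19, Tlr8 to 0.28 and Tlr2 to -0.22. Leaving out single arrays moved each of the 4 across the threshold. Tlr2 was called without reperfused-MCAO replicate 4, reperfused-MCAO + tPA replicate 5, permanent-MCAO replicate 2 or 3 or tPA without MCAO replicate 1 (-0.33 to -0.31). Tlr4 was called without any 1 of 5 arrays, namely anesthesia replicates 1 and 4, reperfused-MCAO replicate 6, permanent-MCAO + tPA replicate 2 and tPA without MCAO replicate 4 (0.39 to 0.41). Tlr7 was called without any 1 of 9, namely anesthesia replicate 5, naive replicate 3, reperfused-MCAO replicates 4 and 5, reperfused-MCAO + tPA replicate 3, permanent-MCAO replicate 6, permanent-MCAO + tPA replicates 2 and 3 and tPA without MCAO replicate 4 (0.29 to 0.34). Tlr8 was called without permanent-MCAO + tPA replicate 1 or tPA without MCAO replicate 2 or 4 (0.28, 0.30 and 0.27).

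Within each kind of MCAO tPA called none of the 8 genes, where 0.722% of probe sets were called in reperfused-MCAO and 0.322% in permanent-MCAO. Tlr2 came nearest. In reperfused-MCAO its levels were 8.52, 8.91 and 9.71 (lowest, median and highest) with tPA, against 8.80, 9.71 and 11.0 without, a difference of -0.75 ± 0.345 (95% interval -1.51 to 0.01, p = 0.0531, exact permutation p = 0.0519). In permanent-MCAO they were 8.16, 8.77 and 9.26 with tPA, against 8.90, 9.41 and 9.74 without, a difference of -0.60 ± 0.224 (95% interval -1.09 to -0.11, p = 0.0214, adjusted p = 1.00, exact permutation p = 0.0281). The groups overlapped in both. In all MCAO rats together, an alternative chosen after seeing the data, Tlr2 differed by -0.67 ± 0.209 and was called (adjusted p = 0.858 from limma). The neutrophil list lay lower with tPA as well, at 9.78 ± 0.461 against 10.3 ± 0.701 in reperfused-MCAO and at 9.47 ± 0.691 against 9.87 ± 0.546 in permanent-MCAO, with none of its 8 markers called in either, and its part in the Tlr2 values was not tested.

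Ly96 and Myd88 also had lower means with tPA in both kinds of MCAO, by less than the spread between rats. Ly96 differed by -0.19 ± 0.180 in reperfused-MCAO and by -0.29 ± 0.197 in permanent-MCAO, where it was called without permanent-MCAO + tPA replicate 6 (-0.46, adjusted p = 1.00 from limma). Myd88 differed by -0.28 ± 0.228 in reperfused-MCAO and by -0.19 ± 0.240 in permanent-MCAO. Tlr4 was higher with tPA in reperfused-MCAO by 0.31 ± 0.251 (p = 0.237 from limma, exact permutation p = 0.242). The tPA differences of the 2 kinds of MCAO were set against each other in 24 arrays, and none of the 8 genes was called, where 0.296% of probe sets were. For Tlr2 the difference between them was -0.15 ± 0.419 (95% interval -1.02 to 0.72). Of the pathway list, tPA called only Tab3 in reperfused-MCAO, at 0.40 ± 0.123 (adjusted p = 0.542 from limma), and no gene in permanent-MCAO.

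Without MCAO all 8 differences with tPA were positive, with a median of 0.41 against -0.01 over all probe sets. Among the genes with a mean of at least log2 4 the median was 0.24 and 71.4% of the differences were positive. Irak4 and Cd14, at 0.02 and 0.12, had negative differences under quantile normalization, and Irak4 also with arrays centred on their medians. Myd88 was called higher in tPA without MCAO than in anesthesia, 1 of the 8 genes. Over all probe sets 9.15% were called higher, and 18.9% of the genes with a mean of at least log2 4. The count was thus no larger than that of expressed genes at large. Myd88 reached 8.72, 9.12 and 9.41 in tPA without MCAO, against 8.27, 8.57 and 9.01 in anesthesia, a difference of 0.53 ± 0.149 (1.44-fold, p = 0.00469, adjusted p = 0.0429 from limma, exact permutation p = 0.0108). The groups overlapped, and 12.5% of probe sets had an adjusted p under 0.05. The call was lost without anesthesia replicate 3, 5 or 6 or tPA without MCAO replicate 1, 2 or 6 (0.46 to 0.51, adjusted p of 0.0749 to 0.0909). It was also lost with the hybridization controls as a covariate (0.31 ± 0.205, adjusted p = 0.770) and with naive rats as the control (0.18 ± 0.151, adjusted p = 0.430). With that covariate Tlr8 was called instead, at 0.87 ± 0.217 (adjusted p = 0.2501). Against naive rats Tlr2 and Cd14 stood at -0.05 and -0.09. Against anesthesia Tlr7 stood at 0.53 ± 0.178 (exact permutation p = 0.0216), Tlr4 at 0.53 ± 0.322 (exact permutation p = 0.162), Tlr8 at 0.46 ± 0.186 (exact permutation p = 0.0455) and Ly96 at 0.37 ± 0.145 (exact permutation p = 0.0325), none of them called. Tlr7 was called without anesthesia replicate 5 (0.61) or tPA without MCAO replicate 4 (0.64), Tlr8 without tPA without MCAO replicate 2 (0.59), and Ly96 without tPA without MCAO replicate 4 (0.47). In the same comparison 2 of 8 neutrophil, 2 of 9 monocyte and 7 of 8 T cell markers were called higher. Called lower were 3 of 4 platelet and 3 of 6 red cell markers. Of 6 NK cell markers 1 was called higher and 1 lower.

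**Figure D4:**
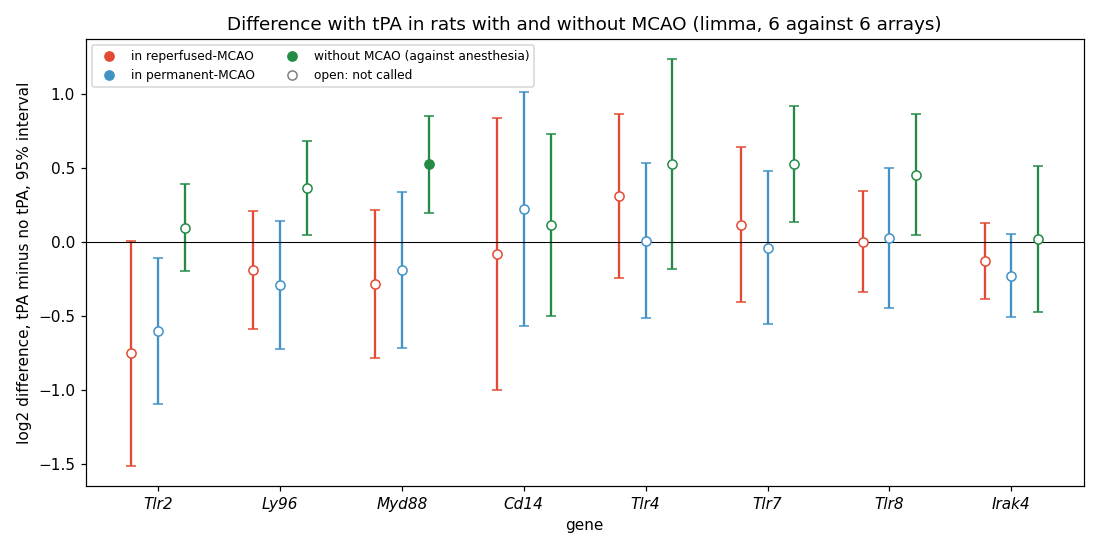
Log2 difference between rats with and without tPA for each gene, with its 95% interval from limma, in reperfused-MCAO, in permanent-MCAO and without MCAO (against anesthesia), 6 against 6 arrays each. The single filled point, called, is Myd88 without MCAO at 0.53. Tlr2 lies at -0.75 and -0.60 in the 2 kinds of MCAO.

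The tPA by stroke interaction compares the tPA difference of MCAO rats with that of rats that had no MCAO. It was negative for all 8 genes, and Tlr2, Ly96 and Myd88 were called lower, 3 of 8 where 14.4% of all probe sets passed as lower and 6.62% as higher. Among the genes with a mean of at least log2 4, 28.9% were called lower, 70.0% were negative and the median was -0.26, against a median of -0.46 for the 8 genes. The count of the 8 genes is thus close to that of expressed genes at large. Cell markers moved too, with 4 of 8 neutrophil, 4 of 9 monocyte and 6 of 8 T cell markers called lower and 5 of 6 red cell and 2 of 4 platelet markers higher, and their part in the values of the 8 genes was not tested. Tlr2 stood at -0.77 ± 0.309 (adjusted p = 0.0970 from limma), Ly96 at -0.61 ± 0.230 (adjusted p = 0.0812) and Myd88 at -0.76 ± 0.262 (adjusted p = 0.0565). None had an adjusted p under 0.05, while 9.47% of probe sets did. Tlr7 at -0.49 ± 0.302 and Tlr8 at -0.44 ± 0.239 were not called, though Tlr8 was without tPA without MCAO replicate 2 (-0.57) or 4 (-0.51). The 3 calls were made in all 42 fits that left out 1 array. With the hybridization controls as a covariate, however, only Tlr2 was called, Ly96 coming to -0.55 ± 0.279 (adjusted p = 0.748) and Myd88 to -0.47 ± 0.307 (adjusted p = 0.858). Tlr4 and Cd14, at -0.37 and -0.05 in the interaction, stood at 0.07 and 0.36 with the covariate, and Cd14 was also positive with arrays centred on their medians (0.02) and under quantile normalization (0.13). With tPA without MCAO coded as not anesthetised none was called, and Tlr2 came to -0.62 ± 0.309 (adjusted p = 0.283), Ly96 to -0.28 ± 0.230 (adjusted p = 0.476) and Myd88 to -0.42 ± 0.262 (adjusted p = 0.368).

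Pathway genes were counted in the same way. Of the 62 pathway genes 15 were called lower and 3 higher in the interaction. Among the genes with a mean of at least log2 4, 28.9% were called lower and 12.6% higher. Neither count exceeded those shares, though the 62 genes include dim ones below that mean. Irf3, an interferon regulatory factor, stood at -1.04 ± 0.235 (adjusted p = 0.00697 from limma) and Tirap, the adaptor that brings MyD88 to TLR2 and TLR4, at -0.94 ± 0.265 (adjusted p = 0.0229). Tab3 at 1.16 ± 0.219 (adjusted p = 0.00278) and Irak1, the kinase that IRAK4 activates, at 1.16 ± 0.275 (adjusted p = 0.00913) went the other way. In tPA without MCAO against anesthesia Irf3 stood at 0.88 ± 0.144, Traf3, a ubiquitin ligase of the interferon branch, at 0.65 ± 0.173, Tab3 at -0.87 ± 0.138 and Irak1 at -0.98 ± 0.264 (adjusted p of 0.00835, 0.0360, 0.00759 and 0.0365). For the tPA effect over all 42 arrays Irf3, Irak1, Traf3 and Tbk1, a kinase that activates IRF3, had the smallest p, at 0.36, -0.41, 0.34 and 0.28, none with an adjusted p under 0.05. The interaction and the comparison without MCAO share the arrays of tPA without MCAO and of anesthesia.

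When every rat had received tPA, MCAO called none of the 8 genes against tPA without MCAO. Of all probe sets 11.8% were called in reperfused-MCAO + tPA, 3.38% higher and 8.37% lower. In permanent-MCAO + tPA 6.69% were called, 2.03% higher and 4.67% lower. Among the genes with a mean of at least log2 4, 7.28% and 4.38% were called higher and 18.1% and 9.69% lower. Cd14 came nearest in both. It reached 6.05, 6.66 and 8.09 in reperfused-MCAO + tPA, against 5.22, 5.92 and 6.66 in tPA without MCAO, a difference of 0.84 ± 0.368 (p = 0.0449, exact permutation p = 0.0541). In permanent-MCAO + tPA it reached 5.77, 6.77 and 7.54, a difference of 0.73 ± 0.347 from the same rats (p = 0.0605, exact permutation p = 0.0714). The groups overlapped in both. Tlr2 differed by 0.30 ± 0.212 in reperfused-MCAO + tPA.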

How the data were processed

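The deposited values are log2 expression levels of Affymetrix rat genome expression arrays, which the authors made from the scans with GC-RMA in Partek software; replicates were not pooled. GC-RMA removes background by probe sequence, and differences of dim probe sets, such as that of Irak4, remain uncertain. The scans were not used here, and no batch or scan order was given in the sources used here. Depth does not apply to arrays, and the number of arrays limits the precision. Of the deposited rows 57 control probe sets were set aside; the mean of 14 hybridization control probe sets was kept per array. Of the 31042 tested probe sets 20826 have 1 gene symbol, 436 several and 9780 none. Symbols come from the platform annotation, updated by the gene table of GRCr8.

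Fits used limma 3.58.1 in R 4.3.3, with p adjusted by Benjamini-Hochberg over all tested probe sets. The first analysis held terms for tPA, MCAO, anesthesia (all groups but naive) and tPA by MCAO; the others used 12 arrays, or 24 for the difference of tPA effects. Exact permutation tests were two-sided. Each array is 1 rat. The fits were tested on simulated data. The 8 members and the lists were chosen with earlier results of these data known. Named besides the members were the called pathway genes, at most the 4 of smallest p in a comparison, and the 3 genes of highest r per member. The counts by role and the named markers were chosen after their values were seen. Figures were drawn with matplotlib 3.10.9.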

Additional observations from a re-analysis of the deposited data

Results flagged for a closer look

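Within the 56 sets of 6 rats (8 genes in 7 groups), 5 had a highest or lowest rat whose gap to the nearest rat, relative to the range of the group, exceeded Dixon's 95% critical value, where chance gives about 1 in 20. Naive replicate 6 had a Tlr2 level of 9.38, with the next naive rat at 8.77. Permanent-MCAO replicate 6 had a Tlr7 level of 7.88, with the next at 6.98. The other 3 concern Irak4, whose probe set is dim: anesthesia replicate 2 at 3.74, with the next at 3.03, naive replicate 5 at 4.04, with the next at 2.82, and reperfused-MCAO + tPA replicate 2, the lowest, at 2.43, with the next at 2.82. Their part in the group differences was not tested beyond leaving out each array.

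The difference with tPA was lower in rats with MCAO than in rats without by the interaction test for Tlr2 (-0.77), Ly96 (-0.61) and Myd88 (-0.76), with adjusted p of 0.0970, 0.0812 and 0.0565 from limma.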

How the results depend on the processing

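For 61 differences of the 8 genes, those given in the text and all 8 of the interaction, of tPA without MCAO and of anesthesia, the alternatives gave 477 values besides those without single arrays. Of these 429 kept their direction and their side of the threshold, 14 fell below it, 17 passed it and 17 turned. Those that turned were not called in any of these fits. In the interaction Cd14 turned to 0.020 with centred arrays, 0.13 with quantile normalization, 0.36 with the covariate and 0.16 with the other anesthesia coding, and Tlr4 to 0.066 and 0.027 with the covariate and that coding. For tPA without MCAO Irak4 turned to -0.034 with centred arrays, -0.020 with quantile normalization, -0.061 with array weights and -0.055 with the covariate, and Cd14 to -0.035 with quantile normalization and -0.13 with the covariate. With naive rats as the control, chosen after seeing the data, Tlr2 and Cd14 in that comparison turned to -0.050 and -0.085, and Tlr4 and Tlr8 in permanent-MCAO without tPA to -0.31 and -0.12. Tlr7 in anesthesia against naive turned to 0.022 with the covariate. Without single arrays these ranges crossed 0: Cd14 -0.20 to 0.090 in the interaction and -0.017 to 0.27 for tPA without MCAO, Irak4 -0.12 to 0.17 for tPA without MCAO and -0.057 to 0.30 for anesthesia, Tlr4 -0.13 to 0.22 in permanent-MCAO without tPA, and Tlr2 -0.33 to 0.11 for the reperfused minus permanent difference of the tPA effects.

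Genes called, of 8, changed as follows, and the cause was not tested. For stroke (4) they were 5 with array weights and 6 in untreated rats alone. For the tPA effect (0) they were 2 with array weights, and 1 with tPA without MCAO coded as not anesthetised and 1 in MCAO rats alone. For the interaction (3) they were 4 with array weights, 1 with the hybridization control covariate and 0 with the other anesthesia coding. For tPA without MCAO (1) it was Tlr8 in place of Myd88 with the covariate. For reperfused-MCAO (4) they were 6 without dim probe sets and 3 with the covariate. With naive rats as the control they were 1 in reperfused-MCAO (4), 1 in permanent-MCAO (2) and 0 for tPA without MCAO (1). For anesthesia against naive (0) it was 1 with array weights and 1 with the covariate. Without single arrays the calls ranged over 4 to 4 for stroke, 0 to 3 for tPA, 3 to 4 for the interaction, 0 to 0 and 0 to 1 for tPA in reperfused- and permanent-MCAO, 0 to 3 for tPA without MCAO, 4 to 6 and 2 to 3 for reperfused- and permanent-MCAO without tPA, and 0 to 1 for anesthesia.

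Correlations over pairs of rats with the same replicate number ran from -0.38 to 0.36, with at most 3 of 6 over 0.1. These values showed no clear pairing by number, but do not settle it for single genes. For tPA in permanent-MCAO the replicate block cut the SE of Myd88 from 0.240 to 0.0603 and of Tlr7 from 0.235 to 0.115. Of the members only Irak4 had a larger SE there, 0.170 against 0.128. For tPA in reperfused-MCAO some SEs fell and others rose. Whether rats of the same number shared a batch was not tested. The replicate block gave 1 call for the tPA effect (Tlr7) and 1 for tPA in permanent-MCAO (Tlr2, adjusted p = 1.00 from limma), and the called genes in reperfused-MCAO became Tlr8, Ly96, Cd14 and Myd88.

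Over all probe sets the covariate cut the calls to 504 (main 3711) for tPA, 1909 (6529) for the interaction, 803 (4267) for tPA without MCAO and 2933 (4785) for stroke. Other probe sets of a member were not tried, since each has 1.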
